A study of Mus musculus with 222 samples.

Results

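Tc2n, a single gene measured by 1 probe set (10402195) of the 35556 on the array (19938 genes could be named from a probe set of their own), was described here across mammary tumors and normal mammary glands of mice. It was selected on its own levels, as one of the genes with the greatest excess of tumors over glands in these same arrays, so that difference is given as a description without a test. The tumors arose in female mice that carry an ErbB2 transgene driven by the promoter of mouse mammary tumor virus (MMTV), which is active mainly in mammary epithelium. The tumor arrays comprised 160 of F1BX mice (F1 backcrossed to FVB/N), 28 of F1 mice (C57BL/6 crossed with FVB/N) and 26 of FVB mice, all MMTV-ErbB2. By their names, 2 of the F1BX arrays repeat a tumor that was also measured on another array. Counts of tumors below are counts of arrays. The 8 normal glands comprised 2 of F1 MMTV-ErbB2 mice, 3 of FVB MMTV-ErbB2 mice and 3 of F1 wild type mice, and no FVB wild type gland was analysed here. Tumors were taken at necropsy, and the labels give no age for any mouse and do not say how the glands were taken. The lifespan of the tumor-bearing mice differed between the 3 crosses, so in tumors age and genetic background cannot be told apart. Each F1BX mouse carries its own mixture of alleles, and by the names of the 214 tumor arrays, 38 mice gave 2 or more of them. Apart from the tumors that share a mouse, nothing in the labels says that samples were handled separately, so p-values measure the spread between these arrays.

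Tc2n encodes a protein with tandem C2 domains and a nuclear localization. C2 domains are folds that in many proteins bind phospholipids, often in response to calcium, and tandem pairs of them are best known from the synaptotagmins, which act in the fusion of secretory vesicles with the plasma membrane. ErbB2 is a receptor tyrosine kinase of the epidermal growth factor receptor family, which signals through the RAS-ERK and PI3K-AKT pathways.

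The arrays fell into 2 sets by the spread of their values. The interquartile range of the log2 values was under 2.8 in 34 arrays (the narrow set) and higher in all others (the wide set). The narrow set held all 8 glands, 20 F1BX tumors and 6 F1 tumors, and the wide set held only tumors. The array just inside that limit, 007T1, had a range of 2.62 and a Tc2n level of 12.09, and the one just outside it, P10T3, had a range of 3.04 and a Tc2n level of 12.18. Because every gland was in the narrow set, the comparisons with glands were repeated among narrow-set arrays. In addition, 2 tumors stood apart by low levels of many, though not all, genes that mark epithelium. In 168T1 and 092T1 the mean of 14 genes of luminal epithelium was 7.56 and 7.47, against 9.78 to 11.16 in the 210 tumors that had Erbb2 above the glands. Main results that rest on these tumors are given with and without them.

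RefSeq (GRCm38.p6) places 2 starts of Tc2n on the minus strand of chromosome 12, and the windows from 250 bases before each start to 50 after it are shown to place the gene. Capitals mark AGGAAG read on either strand, the core bound by the PEA3 group of ETS factors, to which Etv1, Etv4 and Etv5 belong.
Tc2n, chr12:101718474-101718773: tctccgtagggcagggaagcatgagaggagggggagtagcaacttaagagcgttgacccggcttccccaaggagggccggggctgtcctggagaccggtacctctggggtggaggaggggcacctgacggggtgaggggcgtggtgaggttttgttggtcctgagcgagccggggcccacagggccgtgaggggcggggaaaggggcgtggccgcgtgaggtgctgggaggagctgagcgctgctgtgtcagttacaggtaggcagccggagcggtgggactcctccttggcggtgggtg
Tc2n, chr12:101711524-101711823: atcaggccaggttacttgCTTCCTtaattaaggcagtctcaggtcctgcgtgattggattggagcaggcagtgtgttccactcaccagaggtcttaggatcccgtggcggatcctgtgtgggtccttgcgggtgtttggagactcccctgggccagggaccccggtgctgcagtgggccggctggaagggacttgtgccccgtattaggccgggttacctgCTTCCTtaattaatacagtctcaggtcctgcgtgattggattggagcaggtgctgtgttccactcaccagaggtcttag
The first window held no AGGAAG, and the second held 2, both on the opposite strand and so printed as CTTCCT. The motif of STAT5, TTCNNNGAA, searched on both strands, was in neither window. For comparison, AGGAAG was present in 35.35% and TTCNNNGAA in 8.30% of 32851 windows of the same length. These matches describe the letters only.

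Tc2n was high in nearly every tumor and low in every gland. Its log2 expression was 11.83 ± 0.82 (SD, n = 214) in tumors, with a lowest value of 5.28, a median of 11.94 and a highest value of 13.01. In glands it was 6.76 ± 0.83 (SD, n = 8), with a lowest value of 5.59, a median of 6.60 and a highest value of 8.24. The means differed by 5.07 on the log2 scale, a 33.6-fold difference, which ranked 2 among the probe sets. Of the tumors, 211 lay above the highest gland and 3 lay at or below it, so the groups overlapped through those 3 tumors. Within the narrow set the tumors had 11.66 ± 1.73 (SD, n = 26) and the mean was 4.90 above that of the glands. Against the MMTV-ErbB2 glands alone, which had 6.93 ± 1.02 (SD, n = 5), the difference was also 4.90. The samples are bulk tissue, so fewer cells that express a gene and less of its RNA per cell cannot be told apart.

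**Figure D1:**
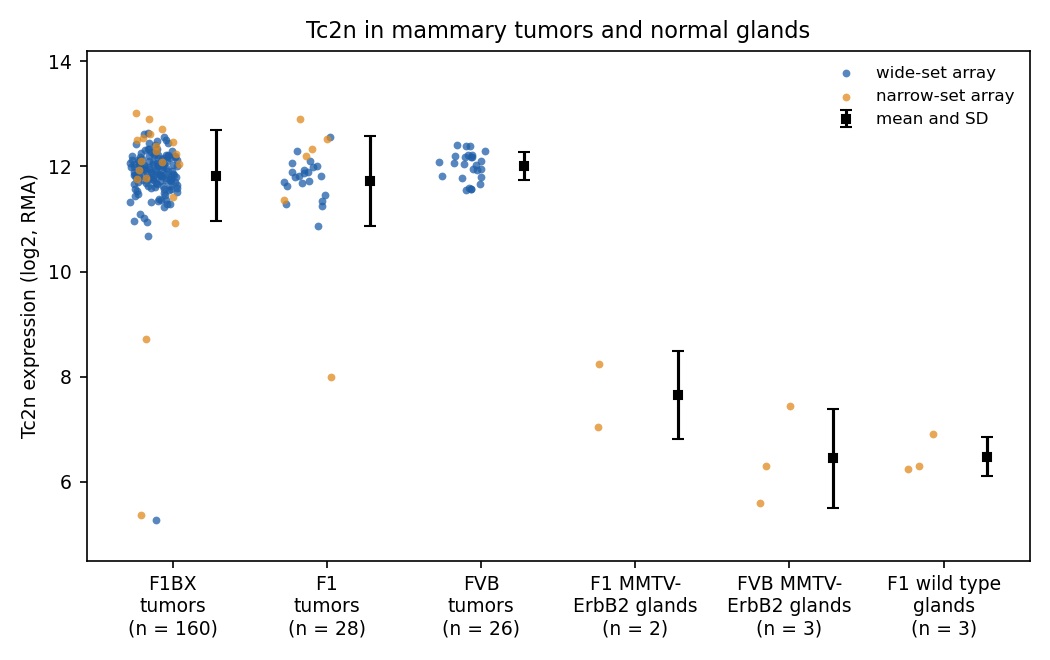
Log2 expression of Tc2n (y axis) in each array, with the groups along the x axis, points coloured by array set, and the mean and SD of each group beside them. All but 4 tumors lie at 10.68 or higher, and the 8 glands lie between 5.59 and 8.24.

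The order of the group means was FVB tumors, F1BX tumors, F1 tumors, F1 MMTV-ErbB2 glands, F1 wild type glands and FVB MMTV-ErbB2 glands. Tc2n was 12.01 ± 0.27 (SD, n = 26; 11.54 to 12.40) in FVB tumors, 11.82 ± 0.86 (SD, n = 160; 5.28 to 13.01) in F1BX tumors and 11.72 ± 0.85 (SD, n = 28; 7.99 to 12.91) in F1 tumors. These neighbours in the order differed by less than their spread, and so did the F1 wild type glands, with a mean of 6.48, and the FVB MMTV-ErbB2 glands, with 6.45. Among glands, the F1 MMTV-ErbB2 glands had 8.24 and 7.05, the FVB MMTV-ErbB2 glands had 7.45, 6.30 and 5.59, and the F1 wild type glands had 6.30, 6.90 and 6.24. The F1 MMTV-ErbB2 glands were thus both above the F1 wild type glands, whereas the FVB MMTV-ErbB2 glands overlapped both of the other kinds.

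The array set also went with the level of Tc2n among tumors of the same cross. In F1BX tumors the median was 12.17 in the narrow set (n = 20) and 11.91 in the wide set (n = 140). In F1 tumors it was 12.26 in the narrow set (n = 6) and 11.81 in the wide set (n = 22). The means ran the other way, with 11.69 in the narrow set and 11.84 in the wide set for F1BX tumors, and 11.55 and 11.77 for F1 tumors, and 3 of the 4 lowest tumors were in the narrow set. By their names, 2 narrow-set arrays repeat tumors that were also measured in the wide set. The repeat 035T1R had 10.93, against 10.68 in 035T1, and the repeat 246T1R had 12.46, against 11.83 in 246T1. Both repeats were higher, by 0.25 and 0.63. Ranked from the lowest of all tumor arrays, 035T1 and its repeat stood at 5 and 7, and 246T1 and its repeat at 85 and 200. What separates the array sets was not tested.

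Whether the genetic background of the tumors went with Tc2n was tested with limma over all probe sets, with an estimated correlation between arrays of one mouse. F1 minus FVB tumors gave a log2 difference of -0.29 (SE 0.230, 95% interval -0.74 to 0.17, adjusted p = 0.444 from limma), where 9.09% of all probe sets were called at an adjusted p under 0.05. F1BX minus FVB tumors gave -0.20 (SE 0.178, 95% interval -0.56 to 0.15, adjusted p = 0.486 from limma), where 5.50% of probe sets were called. F1BX minus F1 tumors gave 0.08 (SE 0.176, 95% interval -0.26 to 0.43, adjusted p = 0.950 from limma), where 0.281% of probe sets were called. Tc2n was not called in any of these 3 comparisons. The intervals leave room for differences between backgrounds of up to 0.74 on the log2 scale, and the estimates rested in part on the 4 tumors described below. Without those, F1 minus FVB was -0.13 (95% interval -0.35 to 0.09), F1BX minus FVB was -0.08 (-0.25 to 0.09) and F1BX minus F1 was 0.05 (-0.12 to 0.22).

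Whether the transgene went with Tc2n in normal glands was asked within the F1 background. The difference between F1 MMTV-ErbB2 and F1 wild type glands was 1.17 (SE 0.738, 95% interval -0.29 to 2.62, adjusted p = 0.763 from limma), where 1.85% of all probe sets were called. An exact two-sided permutation test of the 5 glands gave p = 0.20, the smallest value that their 10 arrangements allow. The difference rested on few arrays, and was 0.57 without F1 MMTV-ErbB2 replicate 1 and 1.77 without replicate 2. The gap between tumors and MMTV-ErbB2 glands was 4.07 in F1 mice and 5.56 in FVB mice. Its difference between backgrounds was -1.49 (SE 0.773, 95% interval -3.01 to 0.04, adjusted p = 0.249 from limma), where 7.82% of probe sets were called. Without the 4 tumors described below it was -1.33 (SE 0.377, adjusted p = 0.0123 from limma). Without F1 MMTV-ErbB2 replicate 1 it was -0.89, so the call depended on those 4 tumors and the size on single glands. The fit shares an estimate of the spread over all groups, and the SE fell when those tumors were left out. The glands themselves had an SD of 0.84 (F1 MMTV-ErbB2, n = 2) and 0.94 (FVB MMTV-ErbB2, n = 3). That p therefore reflects mainly the spread among tumors, not that among the few glands.

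Tc2n and Erbb2 were compared array by array. Tumors had an Erbb2 level of 12.35 ± 0.46 (SD, n = 214), against 9.32 ± 0.94 (SD, n = 8) for glands. Whether this signal reads the transgene, the mouse gene or both was not tested. Among glands, Erbb2 lay between 9.05 and 10.48 in the 5 MMTV-ErbB2 glands and between 8.26 and 8.35 in the 3 wild type glands, with no overlap. Tc2n did not divide the glands in this way, with 5.59 to 8.24 in the MMTV-ErbB2 glands and 6.24 to 6.90 in the wild type glands. The gland with the lowest Tc2n, FVB MMTV-ErbB2 replicate 3 (5.59), had an Erbb2 level of 10.20, well above every wild type gland.

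Among tumors, 4 had Erbb2 within the range of the glands, and these were also the 4 lowest in Tc2n. Tumor 168T1 (F1BX, wide set) had 5.28 for Tc2n and 9.32 for Erbb2. Tumor 092T1 (F1BX, narrow set) had 5.37 for Tc2n and 8.32 for Erbb2. Tumor F1_26T1 (F1, narrow set) had 7.99 for Tc2n and 9.72 for Erbb2. Tumor 076T1 (F1BX, narrow set) had 8.72 for Tc2n and 10.31 for Erbb2. In the other 210 tumors Tc2n was 11.92 ± 0.38 (SD), between 10.68 and 13.01, and Erbb2 was at least 11.73. No tumor lay between 8.72 and 10.68 in Tc2n. The 3 arrays just above that gap were 035T1 (10.68), F21T3 (10.87) and 035T1R (10.93), with Erbb2 of 12.18, 11.94 and 11.90, all above the glands. The highest were 149T1 (13.01), 004T1 (12.91) and F1_6T1 (12.91), all in the narrow set.

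**Figure D2:**
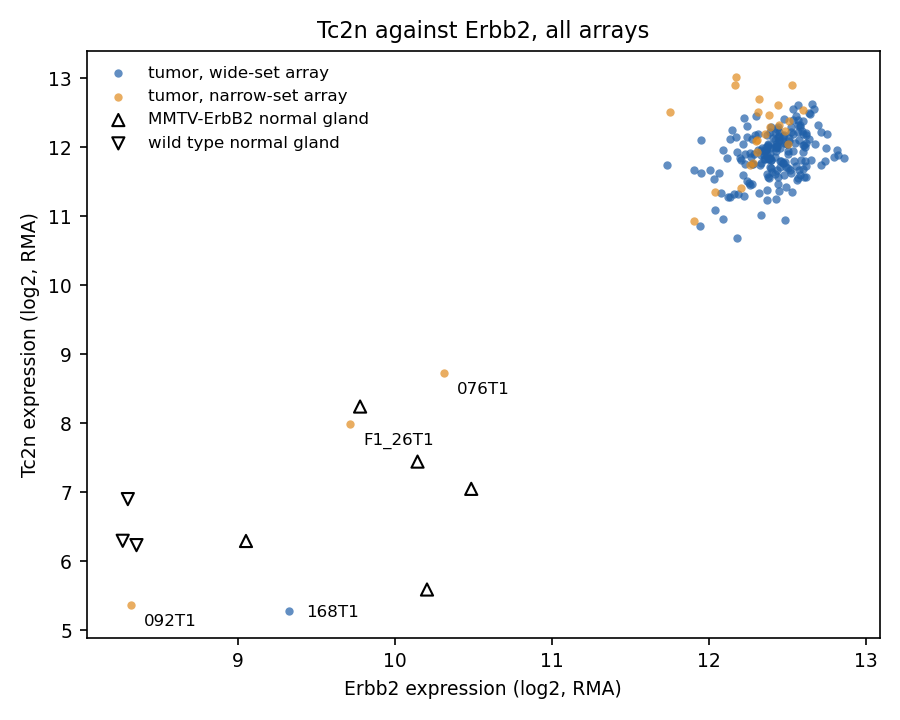
Log2 expression of Tc2n (y axis) against that of Erbb2 (x axis), with 1 point per array, coloured by array set for tumors and drawn as open triangles for glands. The 4 named tumors lie within the range of the glands in Erbb2 (x axis), 168T1 and 092T1 below the lowest gland in Tc2n, F1_26T1 within the glands and 076T1 above the highest, and the other 210 form 1 cloud with Tc2n of at least 10.68 and Erbb2 of at least 11.73.

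The correlation was computed over mice, within each array set, since the sets and the tissues are separate clusters. In the wide set it was r = 0.839 (permutation p = 1e-05), the smallest p these 100000 resamples can give, and rho = 0.360 (permutation p = 5e-05). In the narrow set it was r = 0.961 (permutation p = 2e-05, n = 26 mice) and rho = 0.533 (permutation p = 0.00555). All tests were two-sided, and after Benjamini-Hochberg adjustment over these 4 values the p-values were 4e-05, 6.67e-05, 4e-05 and 0.00555. The size of r rested on the 4 tumors. Without the 2 mice farthest from the median of Erbb2, r was 0.329 in the wide set (permutation p = 0.00019) and 0.826 in the narrow set (permutation p = 0.00214, n = 24). Without the tumors with Erbb2 in the range of the glands, r was 0.336 in the wide set (permutation p = 9e-05, n = 130) and 0.370 in the narrow set (permutation p = 0.0811, n = 23). Thus a weak positive relation remained within the cloud of wide-set tumors, and in the narrow set it no longer passed 0.05.

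The 4 tumors differed in what else they lacked. Epcam, an adhesion molecule of epithelial cells, was 6.49 in 168T1 and 6.39 in 092T1, against 12.17 in 076T1, 11.90 in F1_26T1 and 11.83 to 12.68 in the other 210 tumors. Elf5, a transcription factor of luminal progenitors and alveolar cells, was 5.71 in 168T1 and 6.42 in 092T1, but 11.75 in 076T1 and 11.93 in F1_26T1, near the top of the other tumors (10.13 to 11.97). Csn3, which encodes kappa-casein, followed the same division, with 7.17 and 7.23 in 168T1 and 092T1, and 12.55 and 12.81 in 076T1 and F1_26T1. Tc2n was therefore low both in 2 tumors with low Epcam, Elf5 and Csn3 and in 2 tumors where these were high. The luminal keratins did not follow this division. Krt8 was between 12.23 and 12.88 in all 4 tumors, and Krt18 was 12.66 in 168T1, 10.79 in 092T1, 12.41 in 076T1 and 11.66 in F1_26T1, against 12.66 ± 0.37 (SD, n = 214) over all tumors.

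Tumors 076T1 and F1_26T1 had high levels of some basal genes, and F1_26T1 also of milk genes. Krt5, a basal keratin, was 11.85 in 076T1 and 12.29 in F1_26T1, against at most 10.36 in the other 210 tumors and 7.77 to 11.08 in glands. Wap, a whey protein of milk, was 11.66 in 076T1 and 13.03 in F1_26T1, against 6.25 to 12.47 in the other 210 tumors and 7.61 to 13.07 in glands. The mean of 7 milk genes was 12.45 in 076T1, within the 7.98 to 12.94 of the other 210 tumors, and 13.13 in F1_26T1, above them. The mean of 10 basal and myoepithelial genes, at 8.72 in 076T1 and 8.76 in F1_26T1, was above that of each of the other 210 tumors and within the range of the glands (7.93 to 10.51). Besides Krt5, this list held Krt14 (11.09 and 12.01), Krt17 and Trp63 as high genes in these tumors. Acta2, Myh11, Mylk, Oxtr, Tagln and Cnn1 did not follow. Myh11, for example, was 6.93 and 7.17, against 7.19 ± 0.40 (SD, n = 214) over all tumors. In 168T1 and 092T1 some other genes were high. Hmga2, a chromatin protein of embryonic and mesenchymal cells, was 11.10 and 10.15 there, against at most 7.68 in the other 210 tumors. It was also above those in 076T1 (8.27), though not in F1_26T1 (6.89). The mean of 9 fibroblast and matrix genes was 10.44 in 168T1 and 11.99 in 092T1 (6.97 to 12.27 in the other 210 tumors), and that of 8 macrophage genes was 10.20 and 10.75 (7.96 to 11.33). The part of other cell types in the low Tc2n of these tumors was not tested.

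As a log2 difference from the median of the other tumors of the same array set, Tc2n stood at -6.64 in 168T1, -6.93 in 092T1, -4.31 in F1_26T1 and -3.58 in 076T1. No other gene was lower by as much in 168T1 or in 092T1, while 6 were in F1_26T1 and 19 in 076T1. In 076T1 the genes that were lower by more included Tspan8, a tetraspanin, and Clic6, an intracellular channel protein, with differences of -6.45 and -5.20. These were picked after their values were seen. Tspan8 did not follow Tc2n in all 4 tumors, since it was 12.33 in 168T1, close to the median of 12.69 in the other 210 tumors. Chrm3, the M3 muscarinic acetylcholine receptor, also picked after its values were seen, did follow it. Its level was 6.46 to 7.52 in the 4 tumors, 10.03 to 11.98 in the other 210 and 6.71 to 8.15 in glands.

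**Figure D3:**
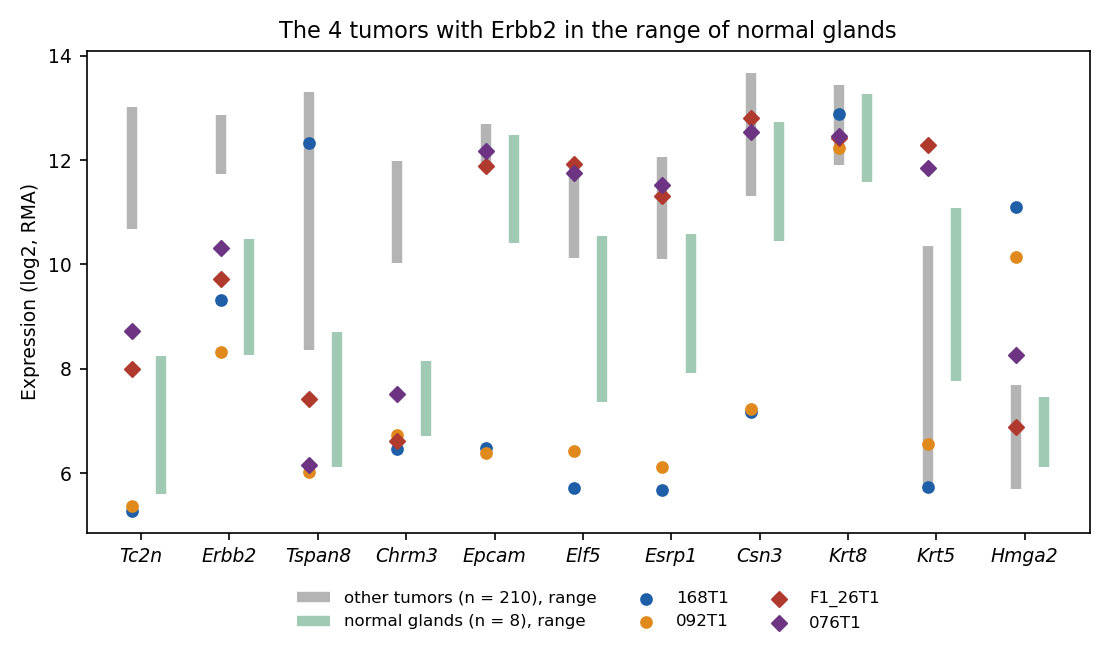
Log2 expression (y axis) of Tc2n, Erbb2 and 9 other genes (x axis) in the 4 tumors with Erbb2 in the range of the glands (points), with the range of the other 210 tumors (grey bars) and of the 8 glands (green bars). Tc2n, Erbb2 and Chrm3 are below the grey bar in all 4 tumors, whereas Epcam, Elf5, Esrp1 and Csn3 are below it only in 168T1 and 092T1.

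The genes with a pattern most like that of Tc2n were sought by Pearson's r over the wide-set tumors, among 18618 genes. The 12 with the highest r were Trf (transferrin, 0.832), Epcam (0.814), Lcn2 (lipocalin 2, 0.809), Spint2 (a serine protease inhibitor of epithelia, 0.808), Elf5 (0.788), Csn3 (0.782), Tmc4 (0.763), Erbb2 (0.763), Nipal2 (0.740), Plet1 (0.739), Enpp3 (0.737) and Me1 (malic enzyme, 0.737). The 5 with the lowest r were Gpr149 (-0.787), Acsbg1 (-0.770), Gzmg (-0.766), Hmga2 (-0.762) and Aldh3a1 (-0.759). These values come from arrays, of which some share a mouse, and they carry no p.

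Most of this likeness came from 1 array. Without 168T1, r over the remaining 187 tumors was 0.447 for Trf, 0.220 for Epcam, 0.168 for Lcn2, 0.329 for Spint2, 0.419 for Elf5 and 0.281 for Csn3. It was 0.370 for Erbb2, 0.407 for Plet1 and 0.427 for Me1. Of all genes compared, 141 had an r of at least 0.5 with 168T1 and 2 had it without, and the number at -0.5 or below was 203 with it and 4 without. Of the 12 genes, 4 were still among the 50 highest without 168T1. By rank correlation, 3 of the 12 were among the 50 highest, and the highest rho of any gene was 0.547.

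With 168T1 left out, the genes most like Tc2n were others, chosen after their values were seen. They were Pdcd4, an inhibitor of translation initiation (r = 0.574), Echdc1, an ethylmalonyl-CoA decarboxylase (0.513), Folr1, a folate receptor (0.485), and Rab15, a small GTPase of endosomal recycling (0.468). In the narrow set, whose arrays were not used for that choice, the same genes had r of 0.629, 0.669, 0.589 and 0.507. These values cover the 23 tumors with Erbb2 above the glands. Among them, 035T1R and 246T1R by their names repeat tumors of the wide set, so the sets are not fully independent. The next 4 in the wide set were Acot6 (0.463), Ormdl3 (0.455), Ehhadh (0.451) and Atp13a4 (0.449), and in the narrow set they had 0.084, 0.476, 0.437 and 0.377, so that Acot6 was near 0 there. At the other end stood Kremen1, a co-receptor of Dickkopf proteins in WNT signaling (-0.532), Cd276, an immune checkpoint ligand (-0.510), Epha4, an ephrin receptor (-0.504), and Lrwd1, a protein associated with the origin recognition complex (-0.50). In the narrow set these had r of -0.475, -0.578, -0.551 and -0.127. The first 3 thus had the same sign and similar size in both sets, and Lrwd1 was near 0 in the narrow set. Over those 23 tumors, 369 genes had an r of at least 0.5 and 716 had -0.5 or below, so values of this size were not rare there.

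**Figure D4:**
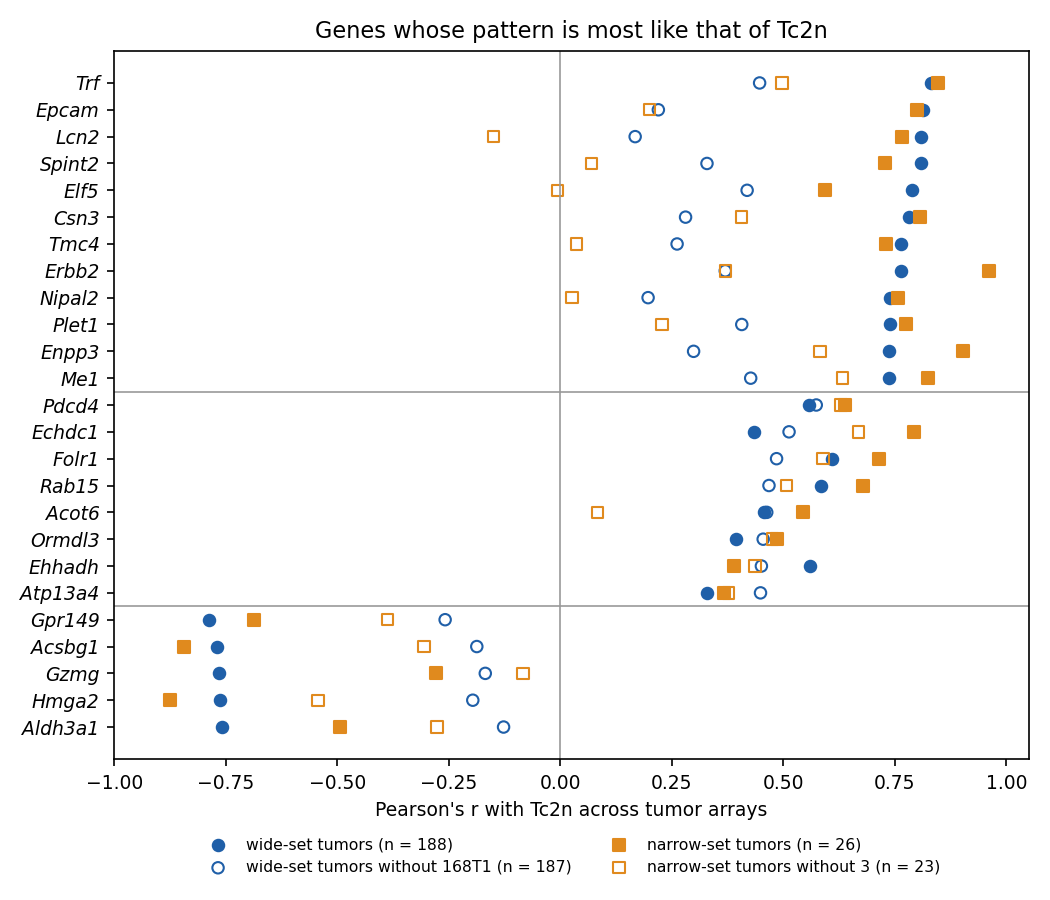
Pearson's r with Tc2n across tumor arrays (x axis) for the 12 genes with the highest r over wide-set tumors (top), 8 with the highest r without 168T1 (middle) and the 5 with the lowest r (bottom). Filled symbols include the tumors with Erbb2 in the range of the glands and open symbols leave them out; the open circles of the top genes lie at 0.447 or lower, against 0.737 or higher for the filled circles.

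In the narrow set the highest r values were those of Stk39 (a kinase that acts on cation-chloride cotransporters, 0.966), Erbb2 (0.961), Socs2 (a suppressor of cytokine signaling, 0.955), Chrm3 (0.946), Aldoc (0.933) and Tspan15 (0.927), over 26 tumors. Without 076T1, 092T1 and F1_26T1, Socs2 had 0.794, Chrm3 0.783 and Stk39 0.707, against 0.370 for Erbb2. In the wide set without 168T1 the same genes had only 0.401 for Socs2, 0.244 for Chrm3 and 0.153 for Stk39. Apart from Erbb2, the genes named here were picked by their narrow-set r, after their values were seen. A lower r in the wide set was therefore to be expected from the choice, and the difference between sets was not tested.

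Gene groups were then set beside Tc2n, by their median r over the wide-set tumors without 168T1. It was 0.33 for 7 genes of milk proteins and secretion, 0.19 for 5 ERBB genes (the 4 receptors and the adaptor Grb7), -0.16 for 14 genes of luminal epithelium, -0.19 for 10 basal genes and -0.23 for 9 fibroblast genes, against -0.03 over the 18618 genes compared. With 168T1 included the luminal genes had a median of 0.45, so their sign turned with that array. The milk genes had 0.33 with it as well. Among them were Btn1a1, a protein of the milk fat globule (0.425), Xdh, xanthine dehydrogenase (0.351), and Csn2, beta-casein (0.346). For the narrow-set tumors the milk genes had a median r of 0.17, and 0.16 without the 3 low tumors.

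Tumors of the same mouse were compared in the wide set, where 38 mice had at least 2 arrays, 95 in all. The intraclass correlation of Tc2n was 0.141, and the SD within a mouse was 0.334, close to the SD of 0.347 over the 187 wide-set tumors without 168T1. The highest and lowest tumor of a mouse differed by 0.04 to 1.43, with a median of 0.42. In mouse F21 the tumors had 12.30, 10.87 and 11.82, a range of 1.43 beside the 10.68 to 12.63 of the wide-set tumors without 168T1. In mouse 035 they had 10.68 and 11.80, and in mouse 187 they had 11.09, 11.75 and 12.10. By contrast, 3 tumors of mouse 117 had 12.19, 12.20 and 12.22 and the fourth had 12.63. By background the intraclass correlation was 0.206 in 30 F1BX mice, -0.54 in 4 F1 mice and 0.895 in 4 FVB mice, and 4 mice give little precision.

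**Figure D5:**
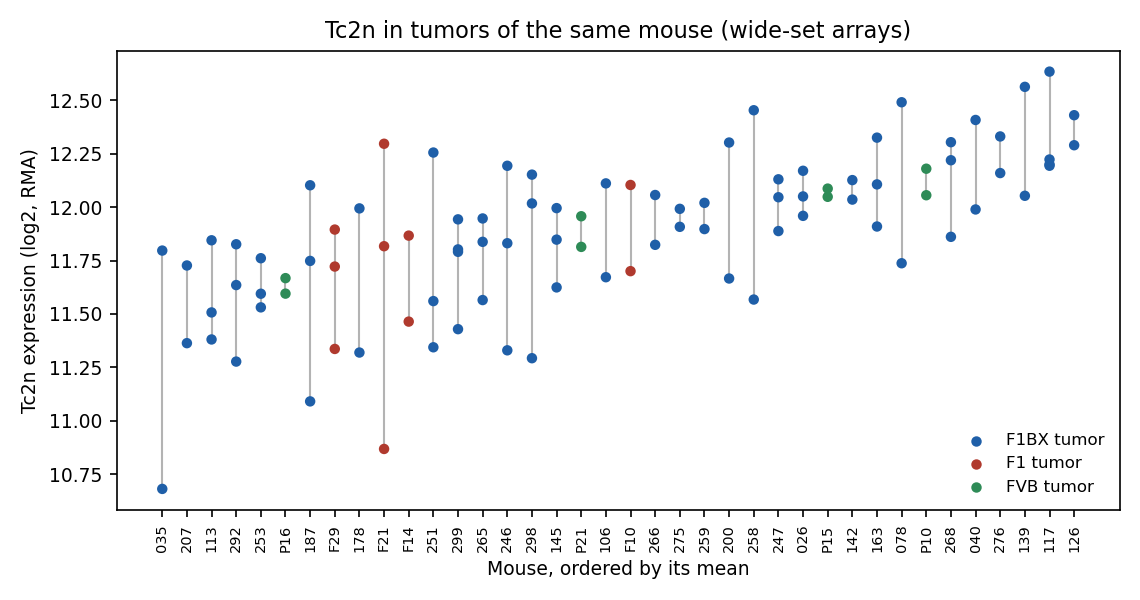
Log2 expression of Tc2n (y axis) in wide-set tumors of the 38 mice with at least 2 such arrays (x axis, ordered by the mean of the mouse), with 1 point per tumor, a line over the range of each mouse and colours for the cross. The ranges within a mouse reach 1.43, and most mice overlap in level with many others.

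Other proteins with tandem C2 domains did not share the level pattern of Tc2n. Of 34 measured synaptotagmins, synaptotagmin-like proteins, double C2 proteins, rabphilin and copines, 2 were higher and 1 was lower in tumors than in glands, when called at 2-fold or more with an FDR up to 0.005 from limma. By the same criteria 28.2% of all probe sets were called. Sytl3, an effector of RAB27 in vesicle transport, was 8.36 ± 0.72 in tumors and 6.62 ± 0.51 in glands, a log2 fold change of 1.73 (adjusted p = 3.09e-10 from limma). Cpne3, a copine, was 10.40 ± 0.36 in tumors and 9.22 ± 0.81 in glands (1.18, adjusted p = 1.4e-14 from limma). Syt1, the calcium sensor of neuronal vesicles, was 5.72 ± 0.29 in tumors and 6.79 ± 0.34 in glands (-1.06, adjusted p = 8.17e-19 from limma). The median over the 34 was -0.47, against -0.11 over all probe sets. Within the narrow set these medians were -0.14 and -0.09, so most of that difference was absent there. With quantile normalization 1 of the 34 was higher and 2 were lower. Within the narrow set, where 12.1% of probe sets were called, none was higher and 1, Cpne8, was lower (-1.65). The median r of these genes with Tc2n was near 0 over the wide-set tumors without 168T1.

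The genes next to Tc2n on chromosome 12, by their order in RefSeq, did not share its difference either. Of the 6 protein-coding genes on each side, 10 had a probe set, of which 2 were called higher in tumors and 0 lower, at 28.2% called over all probe sets. Trip11, a Golgi protein, was 9.45 ± 0.24 in tumors and 8.40 ± 0.65 in glands, and Atxn3, a deubiquitinase, was 9.65 ± 0.25 in tumors and 8.40 ± 0.57 in glands. Their log2 fold changes were 1.04 and 1.24, and within the narrow set only Atxn3 was called. The direct neighbours were not called. Catsperb had 4.33 ± 0.27 in tumors and 4.87 ± 0.33 in glands, and Fbln5, an elastic fibre protein, had 9.08 ± 1.17 in tumors and 9.07 ± 0.39 in glands. Trip11 had an r of 0.39 with Tc2n over the wide-set tumors without 168T1, and Fbln5 had -0.06.

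The makeup of tumors and glands differed in many cell type genes beside Tc2n. Genes of luminal epithelium were divided, with 6 higher in tumors and 2 lower of 14, among them Ehf (2.51) and Krt19 (-3.76), while Krt8 (0.17, adjusted p = 0.165 from limma) and Epcam (0.65, adjusted p = 0.00344) did not pass both criteria. The summed level, as the mean of the list, was 9.78 to 11.16 in the 210 tumors and 9.01 to 11.08 in glands, so it overlapped where Tc2n did not. Of the basal and myoepithelial genes 9 of 10 were lower in tumors, as were 9 of 9 fibroblast genes. The same held for 7 of 7 T cell genes and 6 of 6 B and plasma cell genes. Also lower were 4 of 7 endothelial, 3 of 8 adipocyte and 4 of 5 mast cell genes. Higher in tumors were 3 of 8 macrophage genes and 8 of 9 proliferation genes. Of all 35556 probe sets, 6232 were called higher and 3794 lower, together 28.2%. The mean over the T cell genes was 5.77 to 6.77 in the 210 tumors and 7.53 to 9.10 in glands, and that over the proliferation genes was 7.20 to 10.18 in the 210 tumors and 6.97 to 7.35 in glands. Within the narrow set 12.1% of probe sets were called. There 8 basal, 5 fibroblast, 7 T cell and 5 B and plasma cell genes were still lower. So were 5 endothelial, 3 adipocyte and 4 mast cell genes, while 2 macrophage and 8 proliferation genes were higher. The part of this makeup in the level of Tc2n was not tested.

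Among the genes of ERBB and ERK signaling, 3 of 5 ERBB genes were higher in tumors and 0 lower, and 6 of 13 genes of ERK output were higher and 2 lower, where 28.2% of all probe sets were called. Within the narrow set, where 12.1% were called, 2 of the ERBB genes were higher and 0 lower, and 3 of the ERK genes were higher and 2 lower. Etv1 and Etv5, ETS factors induced by ERK, had log2 fold changes of 4.21 and 4.08, the nearest in size to Tc2n in these lists. Etv1 fell short of Tc2n as a match in single tumors, since it was 10.33 in 168T1 and 11.06 in 092T1, where Tc2n was lowest, and 6.51 in F1_26T1. Its r with Tc2n over the wide-set tumors without 168T1 was 0.33, and that of Etv5 was 0.09. Dusp6, a phosphatase that acts on ERK, had 0.03.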

How the data were processed

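RNA was hybridised to Affymetrix mouse gene 1.0 ST arrays. By the array names, 2 tumors were measured again on a repeat array. The authors normalized the arrays by robust multiarray average (RMA), and deposited 1 log2 value per probe set and array, from 2.25 to 14.8, with array medians from 7.06 to 7.40. RMA normally gives arrays a common distribution, but the interquartile range of the deposited values differed between the array sets. The files carry no detection values, and the number of arrays limits precision. Probe sets were named through the platform annotation, in which 21789 had 1 symbol.

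The gene and the gene lists were chosen with earlier results of these data known. Groups follow the labels. Contrasts were fitted with limma 3.58.1 (R 4.3.3) on all 35556 probe sets, with the mouse as a random block (within-mouse correlation 0.26) and Benjamini-Hochberg adjustment over all of them. Tumors minus glands was called at 2-fold or more with an FDR up to 0.005, the cutoffs of the study, which used SAM, and other contrasts at an adjusted p under 0.05. The probe set with the highest mean stood for a gene in correlations. Named genes were Tc2n, Erbb2, the 12 highest and 5 lowest by r, the chromosomal neighbours and members of 16 lists; others are marked as chosen later. Permutation tests of correlations used 100000 resamples drawn with numpy 2.4.6, and the exact test of the F1 glands used scipy 1.17.1. The fit of tumors minus glands was tested on simulated data, and the other contrasts were not. Alternatives were quantile normalization, the array set as a term or each set alone, 1 array per mouse, a filter on low signal, and leaving out repeat arrays, F1 tumors named F1_ or each gland.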

Additional observations from a re-analysis of the deposited data

How the results depend on the processing

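Tc2n remained far higher in tumors than in glands in all settings tried, with a mean log2 difference between 4.90 and 5.28 when each gland was left out in turn. The count of probe sets called between tumors and glands was 10026, and 4367 with the array set as a term, 4311 in the narrow set alone, and 9122 to 10339 without single glands. F1BX minus F1 tumors turned to -0.011 for Tc2n with 1 array per mouse (adjusted p = 0.997 from limma), and Tc2n was called in none of the 3 background contrasts of tumors in any setting. The difference between backgrounds in the gap of tumors over glands was fitted without the 4 tumors with Erbb2 in the range of the glands. This alternative, chosen after seeing the data, gave -1.33 (adjusted p = 0.0123 from limma). That p rests on a spread pooled over all groups, in which most arrays are tumors. Without single glands the difference was -2.08 to -0.89 and was not called. Across all probe sets that contrast called 2780, but 4 without FVB MMTV-ErbB2 replicate 3 and 7079 without replicate 1, 5255 with quantile normalization and 4225 with the array set as a term. The contrast of F1 glands called 657 probe sets, 1660 with quantile normalization, 1561 with the set as a term and 100 without F1 MMTV-ErbB2 replicate 1, and Tc2n ranged from 0.57 to 1.77 without single glands. F1 minus FVB tumors called 3232 probe sets and 1602 without F1 tumors named F1_, and F1BX minus F1 tumors called 100, with 770 under the set as a term, 836 in the wide set and 3371 without F1 tumors named F1_. The cause of these shifts was not tested. The correlation with Erbb2 in the narrow set was 0.37 without its 3 low tumors. Of the 12 genes most like Tc2n, 3 were among the 50 highest by Spearman's rho, 3 in the narrow set and 4 without 168T1. All 12 were in the other settings, but each of these keeps 168T1, on which most of the likeness rested.

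Gland replicate numbers were not treated as pairs in the main fit. Deviations of same-numbered glands correlated between -0.19 and 0.39 over all pairs of groups, and at 0.05 and -0.04 in the F1 groups compared. Those of differently numbered glands correlated between -0.39 and 0.33. The deviations of the 2 F1 MMTV-ErbB2 glands mirror each other, so these values cannot decide whether the numbers mark pairs. With the replicate block, over the glands only, the difference was 0.89 (adjusted p = 1 from limma), against 1.17 without the block. No probe set was called in either.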
